A study of Mus musculus with 40 samples.

Results

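UCON, Eulor and MARE are name stems of ancient mobile-element remnants in the repeat annotation of the mouse genome. They were taken from a table of reads per single repeat copy by the start of the repeat name. This gave 602 copies with 103 names, among 835636 copies with 1237 names in the whole table. UCON names accounted for 469 copies (77 names), Eulor names for 97 copies (20 names) and MARE names for 36 copies (6 names). The copies were between 65 and 691 bases long, with a median of 179 bases.

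Such elements stopped moving long ago and have few copies, many of which are conserved between species. Copies of this kind are known as parts of coding exons, of untranslated regions (UTRs) and of distant enhancers. A polyadenylated RNA read from such a copy can therefore be a read from the transcript of the gene in which the copy sits, and each change of a repeat name is traced here to its copies and to their host genes.

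The study sequenced poly(A) RNA from YUMM1.7, a mouse melanoma cell line, and from cells of the tumours it formed on serial passage through mice. There were 3 cultures of YUMM1.7 cells, and tumours of the passages F0 (4 tumours), F1 (4), F2 (5), N2.1 (5), N2.2 (3), N2.3 (3), Balb/c-1 (4), Balb/c-2 (3) and CBA (3); tumours A to C of Balb/c-2 have another set of 3 libraries labelled rep2, called Balb/c-2 rep2 here. All groups descend from this 1 line, every tumour was dissociated, and its cells were grown in culture for 1 to 3 passages before RNA was taken. Letters name different tumours of a passage. Each passage occurs once, so p-values measure how its tumours vary, and the passage itself has no repeat. Inbred mouse strains are called Balb/c and CBA; the meaning of F and N2, and the strain, age and sex of the hosts, was not given in the sources used here. Sequencing took place in a first batch (2021) and a second (2022), for which the F2 cells were sequenced again. The labels do not assign libraries to them, so batch and passage cannot be told apart. The library names of CBA and Balb/c-2 rep2 end in a run and lane code, the same for 5 of these 6 libraries and another for Balb/c-2 rep2 B, and the other 34 names have no such code.

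MARE6 in Zcchc3 and UCON14 in Pcbp3 lie in protein-coding sequence and carry a result below. Their sequences are shown because coding sequence is the closest tie between such a remnant and a gene. MARE6 on chromosome 2 lies wholly inside the single exon of Zcchc3, on the minus strand of GRCm38, and makes up 691 of the 1200 coding bases (57.6%). Because it lies inside the coding sequence, it has by definition no stop codon in the reading frame of the gene. The other forward frames hold 9 and 3. Its GC content is 61.8%, against 66.8% for the whole coding sequence. UCON14 on chromosome 10 (167 bases) contains the whole of exon 13 of the 16 exons of a Pcbp3 transcript, also on the minus strand. That exon (10:76770260-76770319) is 60 bases long, all of them coding, so it keeps the reading frame, and 3 of the 5 coding transcripts of Pcbp3 in the annotation include it. Both sequences run 5' to 3' along the transcript (GENCODE M21), with bases of the repeat copy in capitals and flanking coding bases in lower case. The first shows 60 coding bases and then the first 240 bases of the copy (2:152414065-152414364). The second shows the 60-base exon between 30 bases of the exon before it and 30 of the exon after it.
MARE6 in Zcchc3: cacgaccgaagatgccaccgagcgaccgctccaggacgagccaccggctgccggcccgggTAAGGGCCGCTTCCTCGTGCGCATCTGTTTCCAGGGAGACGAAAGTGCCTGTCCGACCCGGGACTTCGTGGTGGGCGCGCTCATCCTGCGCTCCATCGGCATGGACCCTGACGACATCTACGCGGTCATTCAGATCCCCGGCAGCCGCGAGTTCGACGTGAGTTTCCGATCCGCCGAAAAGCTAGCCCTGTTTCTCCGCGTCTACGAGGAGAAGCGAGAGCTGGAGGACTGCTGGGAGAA
UCON14 in Pcbp3: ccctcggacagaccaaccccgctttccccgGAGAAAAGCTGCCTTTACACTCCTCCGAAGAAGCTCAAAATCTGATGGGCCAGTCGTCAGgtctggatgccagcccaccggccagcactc

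Most copies lay outside exons, but most of their signal came from within them. By GENCODE M21, 368 of the 602 copies were in introns (61.1%), 172 were intergenic (28.6%), 33 were in 3' UTRs, 21 in noncoding exons, 6 in coding exons and 2 in 5' UTRs. Signal is the deposited number of reads in a copy divided by 1 factor per library. Of the signal of all 602, the 33 copies in 3' UTRs had 85.7% and the 6 in coding exons 5.09%, while the 368 intron copies held 5.67%. Over all 835636 copies of the table, 3' UTR copies held 47.2% of the signal and intron copies 21.7%. A mean signal of at least 5 over the 40 libraries was required for testing, and 47 copies (7.81%) and 34 names passed; 5 copies had no read in any library and 513 had a mean below 1. The 47 copies were 21 in 3' UTRs, 12 in introns, 5 in noncoding exons, 5 intergenic, 3 in coding exons and 1 in a 5' UTR, and they held 96.1% of the signal. Just inside the filter was Eulor10 in Adamts6 (mean 5.13), and just outside was Eulor5A in Phf21a (4.64). All 602 copies together took 2841 to 6553 reads of the 1280522 to 2976730 reads per library, which was 0.189% to 0.258% of the signal.

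In most tested names a single copy held most of the signal. In 31 of 34 names the leading copy held over 50%, in 14 it held over 90%, and in 22 that copy lay in an exon. The 5 copies with the highest mean signal held 69.8% of the signal of all 602. They were UCON6 in the 3' UTR of Sar1a (10:61693016-61693294; mean 1275), which encodes a GTPase of vesicle budding from the endoplasmic reticulum, and MARE10 in that of Cbx5 (15:103197849-103198088; 719.7), which encodes the heterochromatin protein HP1-alpha. The others were UCON34 in the 3' UTR of Tiparp (3:65554987-65555128; 375), a mono-ADP-ribosyltransferase, UCON70 in that of Csnk2a2 (8:95453089-95453295; 306), a catalytic subunit of casein kinase 2, and UCON4 in that of Pura (18:36291594-36291841; 179), a single-stranded nucleic acid-binding protein. Per 100 bases of copy the means were 457 for UCON6, 299.9 for MARE10, 264 for UCON34, 148 for UCON70 and 72.2 for UCON4.

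**Figure D1:**
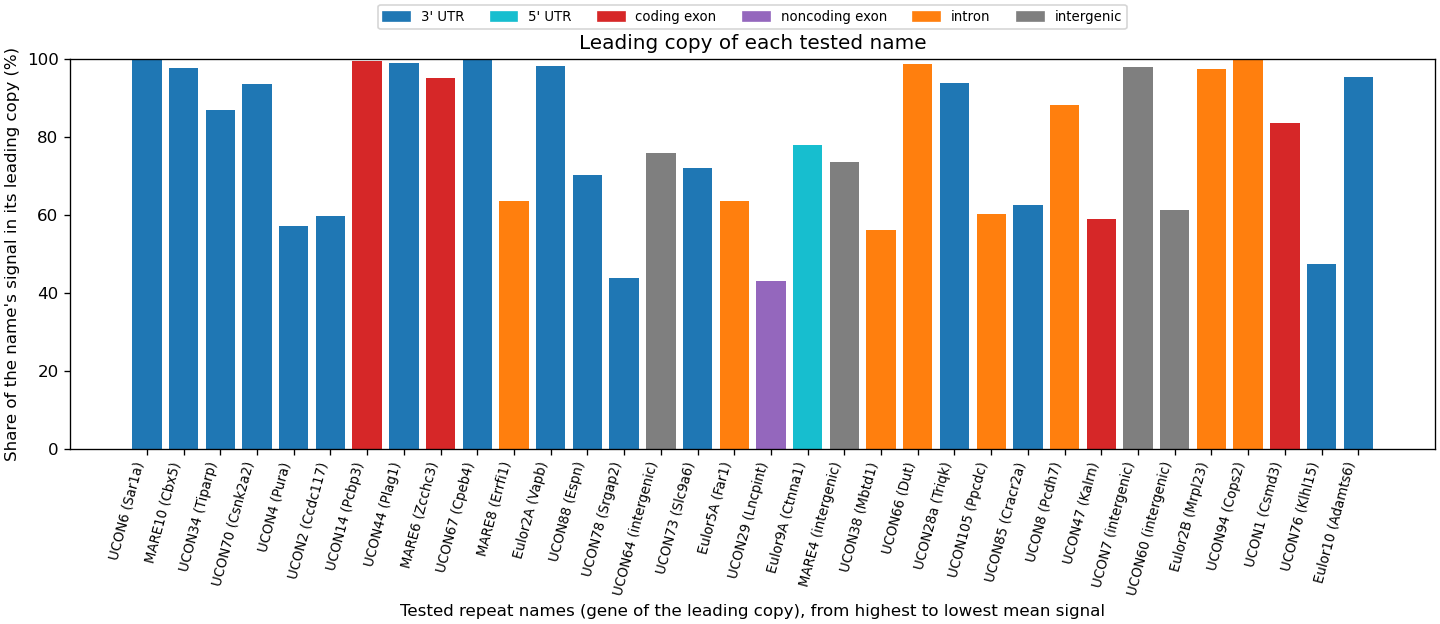
Share of each tested name's mean signal (%, over 40 libraries) that its leading copy held, for the 34 tested names from highest to lowest mean signal; the gene of that copy is in brackets and colour gives its place. The bars of 31 names pass 50%, and blue (3' UTR) prevails among the names with most signal.

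The cells' markers were read through repeat copies in the exons of marker genes. Of 12 melanocytic genes 4 had such a copy: Gpnmb lay between 25.1 and 175 in the 40 libraries, while Tyr, Mlana and Trpm1, which mark pigment cells, did not pass 3.12 and had a median of 0. Of 10 fibroblast genes 7 had one; Pdgfra (236 to 1644) and Pdgfrb (281 to 1824) were read in all libraries, YUMM1.7 cultures included, Postn lay between 0 and 1147 (median 95.8), and Col1a1, Dcn, Thy1 and Fap did not pass 7.37. The summed fibroblast list lay between 629 and 2860 in N2.1 and between 895 and 2226 in F2, which overlap, and between 1123 and 1792 in CBA and between 2156 and 3186 in Balb/c-2 rep2, which do not. The summed lists of immune (5 of 10 genes), endothelial (2 of 6) and keratinocyte genes (1 of 5) did not pass 15.5, 3.63 and 0.914. The part of such cells in the results was not tested. In bulk libraries, fewer cells with a transcript and less of it per cell cannot be told apart.

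The 7 comparisons were each fitted over the whole table with limma on log2(signal + 1) and adjusted over all features; a call is an adjusted p under 0.05. In F0 against YUMM1.7 cells none of the 47 copies and none of the 34 names passed (3 and 3 had an unadjusted p under 0.05), where 0% of all 33215 tested copies and 0% of all 1004 tested names did. In F2 against F0 none passed either (5 copies and 2 names under 0.05 unadjusted), against 0.0391% of all copies and 0.199% of all names. In Balb/c-2 rep2 against Balb/c-2 none passed (5 copies and 4 names under 0.05 unadjusted), against 0.232% of all copies and 2.99% of all names. edgeR and DESeq2 on the recovered reads also called none of them in these comparisons.

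N2.1 against F2 had the most calls among these copies. There 9 of 47 copies passed, 5 higher and 4 lower, where 9.7% of all copies did, and 10 of 34 names passed, 4 higher and 6 lower, where 39.2% of all names did. Their median log2 fold change was 0.12 over the 47 copies and 0.11 over the 34 names, against 0.26 over all copies and 0.29 over all names. TMM scaling, an alternative, put the median of all copies at 0.06 and that of the 47 copies at -0.08; it called 3 higher and 8 lower among the 47 copies, where it called 1348 higher and 1403 lower among all 33215 (8.28%), and 1 higher and 8 lower among the 34 names, where it called 98 higher and 130 lower among all 1004 (22.7%). Of the calls with the deposited scaling, 2 of the 4 lower copies (UCON8 and UCON64) and 2 of the 6 lower names (UCON7 and UCON8) passed the filter only through the cells and F0 to F2, so that a fall was built in. Directions below hold under both scalings unless said. The intron share of the signal was 24.8% ± 2.28 (SD, n = 5) in N2.1 and 18.9% ± 4.32 (SD, n = 5) in F2. When the share was added as a covariate, 3 of the 9 copies kept their call, in Tiparp, Pura and Cbx5.

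**Figure D2:**
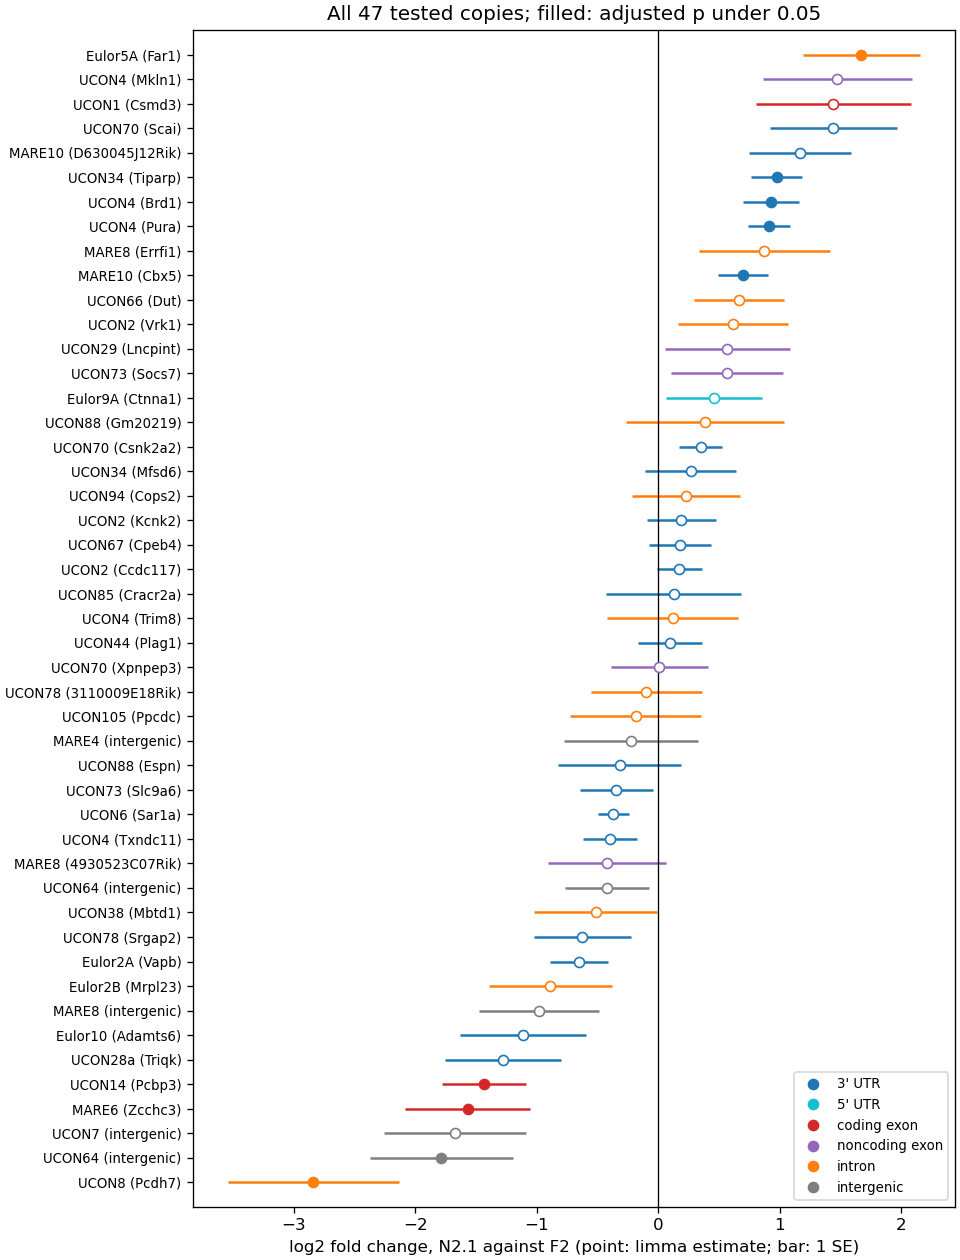
Log2 fold change of each of the 47 tested copies in N2.1 against F2 (limma estimate, bar 1 SE), coloured by place, filled where the adjusted p is under 0.05. The filled points run from -2.84 (UCON8 in Pcdh7) to 1.67 (Eulor5A in Far1), and filled 3' UTR copies lie between 0.70 and 0.98.

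MARE6 in Zcchc3 (2:152413614-152414304) fell in N2.1 and again in N2.3. ZCCHC3 is a zinc-finger protein that binds nucleic acids and aids innate sensing of foreign DNA and RNA. Its signal was 294, 266 and 165 in YUMM1.7 cells, 221, 166, 122 and 243 in F0, 174, 156, 224 and 136 in F1 and 149, 259, 231, 152 and 207 in F2. It was 56.3, 91.0, 72.7, 57.4 and 54.2 in N2.1, 9.88, 10.9 and 13.6 in N2.2 and 9.32, 3.15 and 46.2 in N2.3. In Balb/c-1 it was 4.61, 0, 6.72 and 18.7, in Balb/c-2 1.21, 2.24 and 1.15, in Balb/c-2 rep2 6.65, 1.10 and 0, and in CBA 2.09, 0 and 0. All 24 libraries from N2.1 on lay below all 16 libraries of the cells and of F0 to F2. It averaged 66.3 ± 15.7 (SD, n = 5) in N2.1 and 199.5 ± 48.6 (SD, n = 5) in F2 (log2 fold change -1.57, SE 0.51, adjusted p = 0.044). In N2.3 it averaged 19.6 ± 23.3 (SD, n = 3), against 66.3 ± 15.7 (SD, n = 5) in N2.1 (log2 fold change -2.38, SE 0.59, adjusted p = 0.0287), with 1 N2.3 library (C, 46.2) close to the lowest of N2.1. Against F2 the N2.1 call was lost with the intron share as a covariate (log2 fold change -1.13, adjusted p = 0.356) and without 8 of the 10 libraries in turn, N2.1 A, C, D and E and F2 B, C, D and E (adjusted p 0.0524 to 0.109). edgeR (adjusted p = 0.00253) and DESeq2 (adjusted p = 0.000436) called it. The N2.3 call was lost with edgeR (adjusted p = 0.0735) and without N2.1 C (0.0651), N2.3 A (0.115) or N2.3 B (-1.58, adjusted p = 0.303).

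Zcchc3 could also be read outside MARE6. Its 3' UTR holds 3 other repeat copies, a B1F2 and a pair of Tigger15a copies, which summed to 56.3, 86.9, 59.2, 61.0 and 51.9 in N2.1 and 141, 231, 165, 148 and 177 in F2. In N2.3 they summed to 6.78, 7.89 and 51.5, again highest in tumour C, and in all 3 CBA libraries they had no read. Their log2 fold changes were -1.44 (SE 0.53) in N2.1 against F2 and -2.04 (SE 0.61) in N2.3 against N2.1, and neither passed (adjusted p = 0.0601 and 0.0504), where 14.9% and 3.87% of 7372 genes did. With a pseudocount of 5 both passed (-1.38 and -1.71, adjusted p = 0.00502 and 0.00908), and without N2.3 C the second did (-2.92, adjusted p = 0.00828). Within 500 kb of the copy, 23 tested exon copies of 8 other genes had a median log2 fold change of 0.02 in N2.1 against F2, with 1 called lower. The name MARE6 followed its copy, which held 95.3% of the name's signal and 104% of its difference (log2 fold change -1.45, SE 0.43, adjusted p = 0.00835); the other 6 MARE6 copies were too low to be tested.

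UCON14, the copy around the 60-base Pcbp3 exon, also fell in N2.1. PCBP3 is a poly(C)-binding protein that binds RNA. The copy had 43.7, 36.8, 109, 32.7 and 48.2 in N2.1 and 69.3, 269, 226, 84.1 and 121 in F2 (log2 fold change -1.44, SE 0.35, adjusted p = 0.00517). The groups overlapped through N2.1 C, the highest of its group, and F2 A and D. In later groups it lay at 74.9 to 117 in N2.3, 54.7 to 101 in Balb/c-1 and 82.1 to 173 in CBA. The call held without each of the 10 libraries in turn and was lost with the intron share as a covariate (-0.81, adjusted p = 0.264).

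Other exons of Pcbp3 fell as well. Repeat copies in other exons, mainly a pair of L1M4 copies at its 5' UTR, summed to 19.3, 10.2, 71.7, 25.6 and 37.6 in N2.1 and 64.7, 153, 165, 51.6 and 92.7 in F2 (log2 fold change -1.79, SE 0.42, adjusted p = 0.00363); with the intron share as a covariate this was -1.33 (adjusted p = 0.101). Tumours C of N2.1 and B and C of F2 were highest at both places. Intron copies of the gene had a log2 fold change of -0.47 (adjusted p = 0.363), where 29.6% of 9499 genes tested through intron copies passed and the median gene was at 0.60. The name UCON14 rested on this copy alone, with 99.6% of its signal and 99.9% of its difference (log2 fold change -1.43, SE 0.36, adjusted p = 0.00216).

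**Figure D3:**
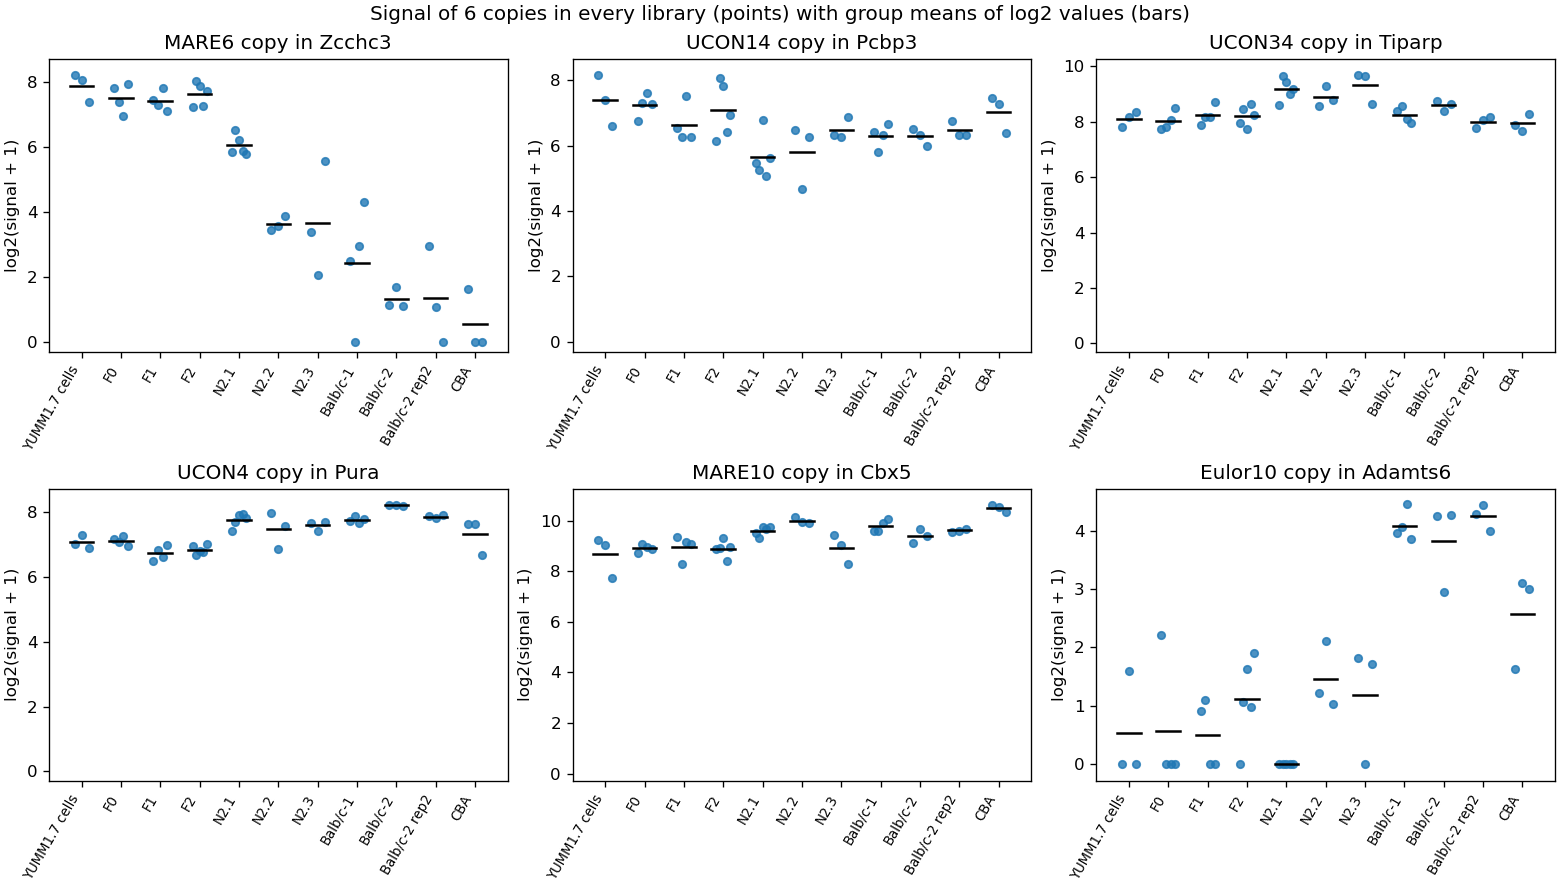
Signal of 6 copies on a log2(signal + 1) axis in every library (points; bars are group means of the log2 values), with the groups in order of passage. MARE6 in Zcchc3 lies between 122 and 294 in the cells and in F0 to F2 and between 0 and 2.09 in CBA, and Eulor10 in Adamts6 lies at 6.72 and above in the Balb/c libraries and at 3.65 and below in all libraries before them.

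The other copies that fell in N2.1, in UCON8 and UCON64, were thinly covered; 1 read is worth a signal of 0.659 to 1.51, depending on the library. Their mean signal was 3.59 (UCON8) and 2.80 (UCON64) over the 24 libraries from N2.1 on, and 14.1 and 9.41 over the 16 before, so both passed the filter only where they are high and were bound to be lower in N2.1. UCON8 in an intron of Pcdh7, a protocadherin gene (5:57785615-57785900), had 0, 4.09, 0, 0 and 1.5 in N2.1 and 6.38, 27.3, 22.1, 5.74 and 6.36 in F2 (log2 fold change -2.84, SE 0.71, adjusted p = 0.007). The groups do not overlap, and 3 N2.1 libraries had no read there. Other intron copies of Pcdh7 fell too, to 1.68, 2.05, 2.08, 0.883 and 3.76 in N2.1, against 3.65, 17.5, 12.6, 5.74 and 11.8 in F2 (log2 fold change -1.76, SE 0.57, adjusted p = 0.0186), where the median gene was at 0.60. The copy carried 98.3% of the difference of the name UCON8 (log2 fold change -2.57, SE 0.72, adjusted p = 0.00586), and copy and name lost their calls with the intron share as a covariate (-1.39, adjusted p = 0.35, for the copy). UCON64, an intergenic copy of 101 bases that lies 2212 bases from Arl3, a small GTPase gene (19:46528784-46528884), had 0, 5.11, 3.12, 0 and 2.26 in N2.1 and 2.73, 15.3, 4.21, 9.56 and 10.9 in F2. Its call (log2 fold change -1.79, SE 0.59, adjusted p = 0.0465) was lost without 7 of the 10 libraries in turn, N2.1 A, D and E and F2 B, C, D and E. The name UCON64 was not called; another intergenic copy, on chromosome 2, holds 75.9% of its signal.

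The names UCON7, Eulor2A and UCON6 fell in N2.1, each on a copy that did not pass by itself. UCON7 (log2 fold change -1.68, SE 0.59, adjusted p = 0.0235) rests on an intergenic copy 79986 bases from Lpp (16:25072564-25072930), which had 3.36, 3.07, 3.12, 1.77 and 7.52 in N2.1 and 6.38, 20.8, 25.3, 9.56 and 11.8 in F2. The name UCON7 had a mean of 2.60 over the 24 libraries from N2.1 on and 15.2 over the 16 before, so its fall too was fixed by the filter. The copies behind the other names lie in 3' UTRs: Eulor2A in that of Vapb, an endoplasmic reticulum membrane protein (2:173782852-173783101), and UCON6 in Sar1a. Eulor2A had 51.2, 44.0, 54.0, 44.2 and 25.6 in N2.1 and 70.2, 84.2, 62.2, 55.5 and 68.2 in F2 (log2 fold change -0.62, SE 0.24, adjusted p = 0.0347 for the name), and UCON6 had 1035, 1237, 1089, 1103 and 837 in N2.1 and 1194, 1583, 1598, 1447 and 1059.5 in F2 (log2 fold change -0.37, SE 0.11, adjusted p = 0.00858 for the name). The N2.1 and F2 libraries overlapped in UCON7 and UCON6 and did not in Eulor2A. The single copies had adjusted p = 0.0587 (UCON7), 0.0759 (Eulor2A) and 0.0528 (UCON6). These copies held 97.9% (UCON7), 98.4% (Eulor2A) and 99.99% (UCON6) of their names' signal. Copy and name are thus almost the same measure, adjusted over 33215 copies and over 1004 names, and a name call is no separate support. Intron copies of the host genes rose, those of Vapb (log2 fold change 2.1, SE 0.57, adjusted p = 0.00563) and those of Sar1a (log2 fold change 0.90, SE 0.27, adjusted p = 0.0108), while other exon copies of Sar1a were at -0.01 (adjusted p = 0.984). All 3 names lost their call with the intron share as a covariate. For UCON6 no other alternative ended the call. Its adjusted p was 0.615 with the covariate, and its log2 fold change lay between -0.65 and -0.09 over all alternatives. Eulor2A also lost its call without F2 A, B or E or N2.1 D or E, and UCON7 without F2 B or C or N2.1 D.

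UCON34 in the 3' UTR of Tiparp rose in N2.1. The copy had 386, 807, 694, 517 and 579 in N2.1 and 244, 349, 213, 401 and 301 in F2 (log2 fold change 0.98, SE 0.21, adjusted p = 0.00176). Only the lowest N2.1 library, A, lay within the F2 range. The call held under all 18 alternatives, with log2 fold changes between 0.75 and 1.12. TIPARP is induced by the aryl hydrocarbon receptor and modifies that receptor and other proteins. No other repeat copy in its exons is annotated, and its intron copies had a log2 fold change of 0.50 (adjusted p = 0.24). The copy carried 96.1% of the difference of the name UCON34 (log2 fold change 0.91, SE 0.20, adjusted p = 0.000597), and without it the other 14 copies had 0.26 (adjusted p = 0.572); the next, in the 3' UTR of Mfsd6, had 51.4 ± 18.5 in N2.1 and 41.2 ± 10.2 in F2 (SD, n = 5 each). Within 500 kb of the Tiparp copy, 10 tested exon copies of 3 other genes had a median of -0.83, with none called.

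UCON4 rose in N2.1 through copies in 2 genes. In the 3' UTR of Pura the copy had 172, 207, 240.1, 246 and 225 in N2.1 and 123, 103, 111, 110.0 and 128 in F2 (log2 fold change 0.91, SE 0.17, adjusted p = 0.000398). In the 3' UTR of Brd1, a bromodomain protein of histone acetyltransferase complexes, 81 of the 129 bases of the copy (15:88686986-88687114) are exonic, and it had 40.3, 45.0, 36.4, 46.8 and 54.2 in N2.1 and 22.8, 24.1, 17.9, 18.2 and 33.6 in F2 (log2 fold change 0.93, SE 0.23, adjusted p = 0.00746). In both, every N2.1 library exceeded every F2 library. The Brd1 copy also differed between libraries of the same tumours. It averaged 89.9 ± 14.0 in Balb/c-2 and 43.6 ± 17.1 in Balb/c-2 rep2 (SD, n = 3 each). That log2 fold change of -1.10 (SE 0.30, adjusted p = 0.129) did not pass, but in size it exceeded the rise in N2.1. The Pura call held under all 18 alternatives, and the Brd1 call held without each library in turn but not with TMM scaling (0.71, adjusted p = 0.0536), with edgeR or with the intron share as a covariate. The rest of Brd1 rose with it in its introns (log2 fold change 1.11, SE 0.28, adjusted p = 0.00361), and its other exon copies were at 0.95 (adjusted p = 0.15), or -0.04 with the intron share as a covariate. Pura has no other repeat copy. Of the difference of the name UCON4 (log2 fold change 0.56, SE 0.11, adjusted p = 0.000148) the Pura copy carried 93.5% and the Brd1 copy 19.2%, which makes over 100% because other copies were lower. Over its copies outside exons the name was at -0.09 (adjusted p = 0.899), and with TMM scaling the name was at 0.30 (adjusted p = 0.0674); edgeR and DESeq2 did not call it either.

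MARE10 in the 3' UTR of Cbx5 was higher in N2.1 than in F2 and higher in CBA than in Balb/c-2 rep2. Between these groups its level did not rise steadily. It averaged 488 in F2, 1029 in N2.2, 510 in N2.3, 902 in Balb/c-1 and 686 in Balb/c-2. Neither N2.3 against N2.1 (log2 fold change -0.68, adjusted p = 0.167) nor Balb/c-1 against N2.3 (0.88, adjusted p = 0.0505) passed. The copy had 736, 633, 857, 829.5 and 862 in N2.1 and 473, 489.8, 637, 343 and 495 in F2 (log2 fold change 0.70, SE 0.21, adjusted p = 0.0248), and only N2.1 B lay within the F2 range. The N2.1 call was lost with TMM scaling (0.47, adjusted p = 0.201), with edgeR (0.45, adjusted p = 0.236) and DESeq2 (0.49, adjusted p = 0.191), and without F2 D or N2.1 C, D or E. In CBA it had 1598, 1494 and 1316, against 762, 783 and 812 in Balb/c-2 rep2 (log2 fold change 0.90, SE 0.27, adjusted p = 0.0367), and the groups do not overlap. Leaving out any 1 of these 6 libraries ended this call. So did TMM scaling (0.74, adjusted p = 0.122), edgeR, DESeq2, no filter on low signal and the intron share as a covariate. The intron share was 25.9% ± 1.38 in CBA and 18.4% ± 0.949 in Balb/c-2 rep2 (SD, n = 3 each).

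The other exon copies of Cbx5, 7 in all, rose in CBA, to 5707, 5576 and 4855, against 3219, 3369 and 2649 in Balb/c-2 rep2 (log2 fold change 0.81, SE 0.22, adjusted p = 0.0139), where 12.5% of 7372 genes passed; the call was lost without CBA A or Balb/c-2 rep2 C. In N2.1 against F2 they had 0.45 (adjusted p = 0.0668), in N2.3 against N2.1 -0.27 (adjusted p = 0.507) and in Balb/c-1 against N2.3 0.67 (adjusted p = 0.0411). Intron copies of the gene rose in N2.1 to 28.6, 28.6, 21.8, 17.7 and 33.1, against 10.9, 3.28, 3.16, 4.78 and 17.3 in F2 (log2 fold change 1.83, SE 0.39, adjusted p = 0.000758). The name MARE10 passed in both comparisons (log2 fold change 0.71, SE 0.21, adjusted p = 0.00699 in N2.1, log2 fold change 0.87, SE 0.27, adjusted p = 0.0291 in CBA), and the Cbx5 copy carried 97.1% and 102% of its differences. The name lost its N2.1 call with TMM scaling (0.44, adjusted p = 0.147), edgeR and DESeq2, and its CBA call without any 1 of the 6 libraries. Without the Cbx5 copy the name still passed in N2.1 against F2 (log2 fold change 1.19, adjusted p = 0.025). In CBA it did not (-0.72, adjusted p = 0.39). The next copy, in the 3' UTR of D630045J12Rik, had 15.4 ± 5.23 in N2.1 and 6.68 ± 3.27 in F2 (SD, n = 5 each). Its log2 fold change was 1.17 (adjusted p = 0.0701).

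Eulor5A in an intron of Far1 was the intron copy that rose in N2.1. FAR1 makes fatty alcohols for ether lipids. The copy (7:113554401-113554555) had 16.0, 15.3, 14.5, 15.0 and 20.3 in N2.1 and 8.20, 3.28, 5.27, 3.83 and 2.73 in F2, with no overlap (log2 fold change 1.67, SE 0.49, adjusted p = 0.0213). It was also low in 3 of 4 F1 libraries and at 11.9 to 21.7 in F0. The other intron copies of Far1 rose (log2 fold change 1.26, SE 0.23, adjusted p = 0.000146), and its exon copy had 0.92 (adjusted p = 0.0637). The antisense gene Far1os overlaps the copy, and reads of the 2 genes cannot be told apart because the strand setting was not given in the sources used here. With the intron share as a covariate (1.00, adjusted p = 0.364) the call was lost, as it was with edgeR and without F2 B. The name Eulor5A (log2 fold change 1.04, SE 0.38, adjusted p = 0.0308) had 0.08 without this copy (adjusted p = 0.923), and it lost its call with TMM scaling (0.79, adjusted p = 0.113), edgeR, DESeq2, the intron share as a covariate and without F2 B, C or E or N2.1 A or E.

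In N2.3 against N2.1 the called copy besides MARE6 was UCON88 in the 3' UTR of Espn (4:152120730-152120919), the gene of the actin-bundling protein espin. In this comparison 2 of 47 copies passed, 1 higher and 1 lower, where 1.4% of all copies did, and 1 of 34 names, where 0.498% of all names did. UCON88 in Espn had 54.2, 45.0 and 96.2 in N2.3 and 12.6, 10.2, 7.28, 1.77 and 7.52 in N2.1, with no overlap (log2 fold change 3.00, SE 0.58, adjusted p = 0.00389). It stayed at 27.2 to 96.8 in Balb/c-2, Balb/c-2 rep2 and CBA, and at 6.72 to 37.1 in Balb/c-1. The other repeat copies of Espn were too low to be tested, at a mean of 1.7 in exons and 0.799 in introns. The Espn copy carried 63.1% of the difference of the name (log2 fold change 2.69, SE 0.52, adjusted p = 0.0102), and a copy in an intron of Gm20219 on chromosome 17 carried 26.8%, with 12.7 to 56.0 in N2.3 and 1.04 to 14.3 in N2.1 (log2 fold change 2.47, adjusted p = 0.0875). Without the Espn copy the name had 2.04 (adjusted p = 0.117). The name lost its call without N2.1 D or N2.3 C, and the copy kept its call without each of the 8 libraries.

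In Balb/c-1 against N2.3, 3 of 47 copies passed, 1 higher and 2 lower, where 2.2% of all copies did, and 3 of 34 names, where 3.19% of all names did. TMM scaling put the median of all copies at -0.02 in place of -0.17 and called 2 of the 47 copies higher and 1 lower, where it called 499 higher and 281 lower among all copies (2.35%), and 1 of the 34 names, higher, where it called 2.39% of all names. Eulor10 in the 3' UTR of Adamts6, a secreted metalloprotease gene (13:104369616-104369845, 137 of 230 bases exonic), rose to 14.7, 15.9, 21.1 and 13.5 in Balb/c-1, against 2.54, 0 and 2.27 in N2.3 (log2 fold change 2.92, SE 0.63, adjusted p = 0.00854). It had no read in N2.1, and it had 18.1, 6.72 and 18.3 in Balb/c-2, 18.6, 21 and 15.1 in Balb/c-2 rep2 and 2.09, 7.61 and 7.03 in CBA. It passed the filter only through those later groups, so a copy at this level was bound to differ. Intron copies of Adamts6, 102 in all, rose to 37.8, 55.6, 10.6 and 22.9, against 9.32, 3.16 and 1.51 in N2.3 (log2 fold change 2.55, SE 0.70, adjusted p = 0.0313), where 3.13% of 9499 genes passed. Their sum averaged 0.97 to 5.50 in the groups before Balb/c-1 and 20.2 to 36.3 in the Balb/c and CBA groups. It too passed the filter through those later groups, so its rise is no separate support. The name Eulor10 (log2 fold change 2.94, SE 0.63, adjusted p = 0.0045) rested on this copy for 98.5% of its difference, and both calls were lost without N2.3 B, the N2.3 library with no read.

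UCON34 in Tiparp fell in Balb/c-1, where it had 335, 380.5, 276 and 247, against 822, 801 and 397 in N2.3 (log2 fold change -1.07, SE 0.25, adjusted p = 0.0181). All 4 Balb/c-1 libraries lay below the lowest of N2.3, which was tumour C, and within the F2 range. The call was lost without N2.3 A or B or Balb/c-1 C or D in turn and with TMM scaling (-0.90, adjusted p = 0.0508). The name (log2 fold change -0.83, SE 0.24, adjusted p = 0.0435) had 0.78 without this copy (adjusted p = 0.33), and it lost its call with TMM scaling (-0.80, adjusted p = 0.0619) and without N2.3 A or B or Balb/c-1 A, C or D. Intron copies of Tiparp had -0.74 (adjusted p = 0.313).

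MARE8 in an intron of Errfi1 (4:150857142-150857376), the gene of a feedback inhibitor of the epidermal growth factor receptor, also fell in Balb/c-1. It had 21.2, 19.4, 6.72 and 3.12 in Balb/c-1 and 53.4, 70.2 and 69.7 in N2.3, with no overlap (log2 fold change -2.57, SE 0.65, adjusted p = 0.0271). Earlier groups were wide, with 36.1, 88.0, 14.5, 69.8 and 10.53 in N2.1 and 28.1, 9, 12.8 and 97.8 in F1. The 7 other intron copies of Errfi1 fell with it, to 57.1, 34.4, 46.1 and 59.3 in Balb/c-1, against 245, 199.6 and 179 in N2.3 (log2 fold change -2.07, SE 0.58, adjusted p = 0.0371). The intron share of the signal was 20.4% ± 2.86 (SD, n = 4) in Balb/c-1 and 23.8% ± 2.44 (SD, n = 3) in N2.3, and with it as a covariate the call was lost (-2.19, adjusted p = 0.0842). It was also lost with edgeR (adjusted p = 0.0567) and without each N2.3 library or Balb/c-1 C or D. The name MARE8 (log2 fold change -1.38, SE 0.40, adjusted p = 0.0435) had -0.28 without this copy (adjusted p = 0.783), which carried 91.3% of its difference, and it lost its call with TMM scaling (-1.35, adjusted p = 0.051), with the covariate and without any library but Balb/c-1 B. A copy in a noncoding exon of 4930523C07Rik had 9.02 ± 3.57 (SD, n = 4) in Balb/c-1 and 20.3 ± 11.1 (SD, n = 3) in N2.3.

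In CBA against Balb/c-2 rep2, 1 of 47 copies passed, higher, where 5.93% of all copies did, and 2 of 34 names, 1 higher and 1 lower, where 14% of all names did. TMM scaling put the median of all copies at 0.06 in place of 0.20 and called 1 of the 47 copies, lower, where it called 825 higher and 1218 lower among all copies (6.15%), against 1127 higher and 843 lower with the deposited scaling. The summed fibroblast markers, which did not overlap between these groups, are given above, and their part in the results was not tested. Among the 5 libraries of 1 run code, which leaves out Balb/c-2 rep2 B, MARE10 in Cbx5 had 0.90 (adjusted p = 0.0666) and the name UCON44 -1.25 (adjusted p = 0.0264). Besides MARE10 the called name was UCON44 (log2 fold change -1.06, SE 0.34, adjusted p = 0.0358), which stands for a 553-base copy in the 3' UTR of Plag1, a zinc-finger transcription factor gene (4:3901979-3902531). The copy had 77.4, 89.1 and 72.7 in CBA and 177, 127 and 206 in Balb/c-2 rep2 (adjusted p = 0.0545 for the copy), and the groups do not overlap. Its level in Balb/c-2 was 175, 123 and 226. Other exon copies of Plag1 had -1.08 (adjusted p = 0.0703), the larger a MMSAT4 copy in coding sequence with 38.1 ± 3.87 in CBA and 88.0 ± 24.5 in Balb/c-2 rep2 (SD, n = 3 each). The UCON44 call was lost without Balb/c-2 rep2 A or C, without each CBA library and with the intron share as a covariate (-1.16, adjusted p = 0.0872).

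The host genes of called copies can be set beside them. UCON8 and Eulor10 are left out of these counts, since the filter fixed their direction. In 7 of 7 cases with other exon copies to test, the host gene's log2 fold change had the sign of the called copy, and 2 of the 7 passed, where 14.9% of all genes did in N2.1 against F2, 3.87% in N2.3 against N2.1, and 12.5% in CBA. The signs were also the same in 8 of 8 cases with intron copies to test, and 4 of the 8 passed, where 29.6% of all genes did in N2.1 against F2, 3.13% in Balb/c-1 against N2.3, and 12.7% in CBA. The median of all genes read through intron copies was 0.60, -0.24 and 0.61 in these comparisons. Among the intron cases only Pcbp3 in N2.1 had a sign other than that median. The shared signs of intron copies therefore do not set the host genes apart from other genes. No such median is given here for exon copies. Copy and gene are read in the same libraries, so each pair shares the spread between tumours, and no test of these counts was made. Pura and Espn have no such comparison. The counts also leave out host genes of names called on a copy that did not pass by itself. Intron copies of these genes had the sign opposite to the name. In N2.1 against F2 they were at 0.90 for Sar1a (UCON6 -0.37) and 2.1 for Vapb (Eulor2A -0.62), and both passed. In CBA against Balb/c-2 rep2 they were at 0.45 for Plag1 (UCON44 -1.06) and did not pass. Other exon copies were at -0.01 for Sar1a and -1.08 for Plag1.

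**Figure D4:**
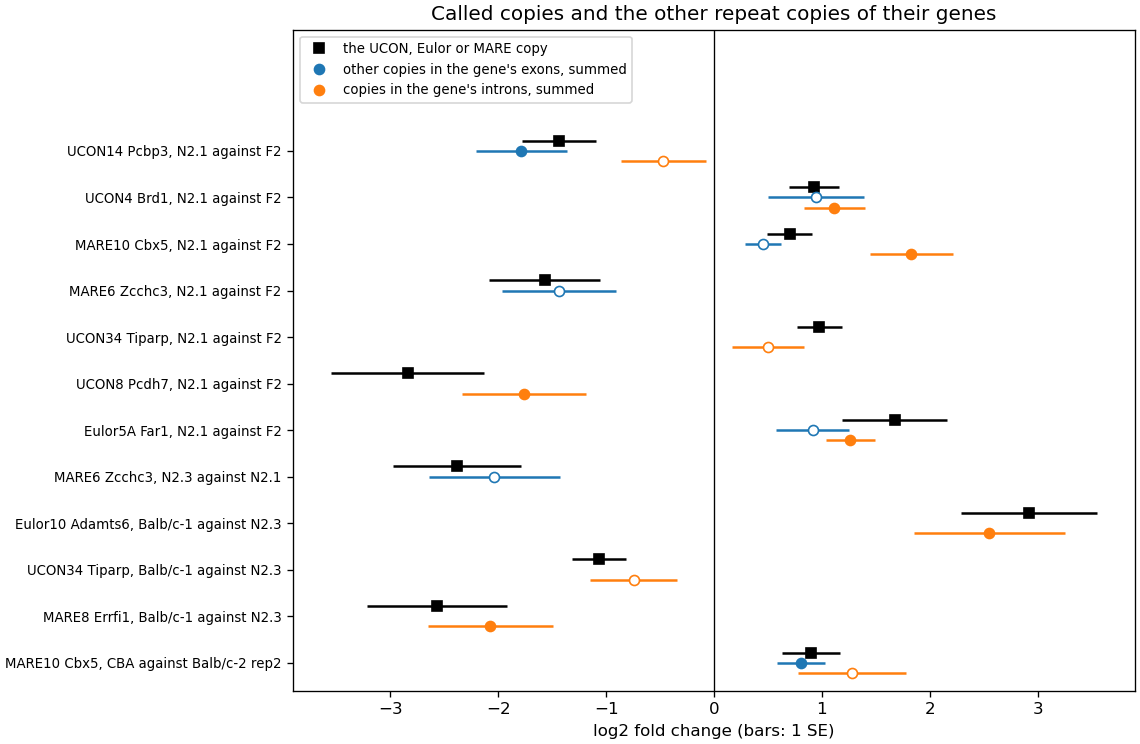
Log2 fold changes (bars 1 SE) of called copies (squares) beside those of other repeat copies in exons (blue) and in introns (orange) of the same gene, filled circles having an adjusted p under 0.05. In every line all points lie on 1 side of 0, but the filter fixed the side for UCON8 in Pcdh7 and Eulor10 in Adamts6. Lines are for called copies only, which leaves out Sar1a, Vapb and Plag1. The median of all genes read through intron copies lies at 0.60 in N2.1 against F2, -0.24 in Balb/c-1 against N2.3 and 0.61 in CBA.

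Of the 5 copies with most signal, UCON70 in Csnk2a2 was called in no comparison, with log2 fold changes between -0.23 and 0.35 over the 7 comparisons. UCON6 in Sar1a as a single copy was also not called, between -0.46 and 0.31. Other ancient repeats, those with names such as MIR, L2, L3 and AmnSINE, gave 134 calls among 1066 tested copies for N2.1 set against F2, of which 92 were higher and 42 lower, with a median log2 fold change of 0.23, and 13 of 45 names were called, 11 higher and 2 lower. In CBA against Balb/c-2 rep2 they gave 65 calls among the 1066 copies and 4 among the 45 names. No difference between these and the UCON, Eulor and MARE copies was tested.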

How the data were processed

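Poly(A) RNA of 40 libraries in 11 groups was analysed from 1 deposited table with a row per repeat copy; no column lacked a sample. Its values are a signal, the reads per copy that the authors divided by 1 factor per library, as the deposited values show: dividing by the value of 1 read (0.659 to 1.51) gave whole numbers for 100% of the values within 0.1 read, with 1 YUMM1.7 culture, whose step is too near 1 to tell, taken as it stands. The submitters' processing notes name featureCounts 1.5.0-p3, HISAT2 2.0.5 and StringTie 1.3.3b, and the build mm10. The repeat annotation, the treatment of reads with several matches, the strand setting of the counting and the origin of the factors were not stated by the submitters. Directional as well as non-directional libraries are mentioned, and which of the 40 libraries were of which type could not be settled here. Any part of library type in the results was therefore not tested. Names whose copies are alike could share reads.

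Copies were placed by GENCODE M21 on GRCm38 (mm10) with bedtools 2.31.1. Signal was summed by repeat name and, without the copies under study, over exon and intron copies of a gene. limma 3.58.1 (R 4.3.3, trended variance, 11 group means, all 40 libraries) was fitted to log2(signal + 1) of features with a mean signal of at least 5, two-sided, with Benjamini-Hochberg adjustment over all features of a comparison. Fold changes on this scale understate those of low copies. The fit was run on simulated independent counts, with the same spread setting for every copy and no change of intron share or shared tumours. That run cannot tell how such features move the calls here. Alternatives were TMM factors, a pseudocount of 5, a mean of at least 10, no filter, edgeR 4.0.16 and DESeq2 1.42.0 on the recovered reads, the intron share as a covariate, a block for tumour letters and leaving out each library. Tables were made in Python 3.11.15 (pandas 2.3.3, numpy 2.4.6, scipy 1.17.1) and figures with matplotlib 3.10.9.

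Named are all names and copies called in a comparison, the leading copy of each such name, the 5 copies with the highest mean and their host genes. The members and lists were chosen with earlier results of these data known. No 2 libraries were identical (highest r 0.896). Letters name the same tumours only in Balb/c-2 rep2 and Balb/c-2, where libraries of 1 letter deviated together (r 0.155 to 0.255, other letters -0.195 to -0.0563); elsewhere same-letter r was between -0.132 and 0.0964. P-values rest on the spread between tumours of a passage, and between cultures for YUMM1.7 cells, pooled over all 11 groups. The tumours of Balb/c-2 enter it again as Balb/c-2 rep2.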

Additional observations from a re-analysis of the deposited data

Results flagged for a closer look

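In groups of 4 or 5 libraries, a single library stood far from the rest at 9 of 84 copy and group combinations of the named copies; by chance about 1 in 20 such groups would be singled out, and copies share libraries. UCON14 in Pcbp3 had 181 in F1 D, with the other F1 libraries between 75.2 and 92.2. In N2.1 C it had 109, with the others between 32.7 and 48.2. Eulor5A in Far1 had 14.1 in F1 E (others 1.12 to 2.14) and 20.3 in N2.1 E (others 14.5 to 16.0). The intergenic UCON7 copy on chromosome 16 had 22.5 in F1 D (others 5.27 to 7.88), 7.52 in N2.1 E (others 1.77 to 3.36) and 4.16 in Balb/c-1 D (no read in the others). UCON8 in Pcdh7 had 11.4 in Balb/c-1 D (others 0 to 1.92). Eulor10 in Adamts6 had 3.65 in F0 A, with no read in the other F0 libraries. F1 D, N2.1 E and Balb/c-1 D each occur at more than 1 copy in this list.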

How the results depend on the processing

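The counts of called copies were 9 in N2.1 against F2, 2 in N2.3 against N2.1, 3 in Balb/c-1 against N2.3 and 1 in CBA against Balb/c-2 rep2, and those of names 10, 1, 3 and 2. With the intron share as a covariate, 3 copies and 3 names passed in N2.1 against F2, and 0 copies and 1 name in CBA against Balb/c-2 rep2; the share differs between these groups, so covariate and group cannot be told apart. Without a filter on low signal, which adds features to the adjustment, 5 copies passed in N2.1 against F2, 1 name in Balb/c-1 against N2.3 and 2 names in Balb/c-2 rep2 against Balb/c-2, where none passed otherwise. A pseudocount of 5 gave 5 copies in Balb/c-1 against N2.3, 3 copies in CBA against Balb/c-2 rep2 and 2 names in N2.3 against N2.1, and a mean signal of at least 10 gave 2 copies in CBA against Balb/c-2 rep2. In N2.3 against N2.1 edgeR called 1 copy and 3 names and DESeq2 4 copies and 3 names, and DESeq2 called 5 copies and 5 names in Balb/c-1 against N2.3. TMM scaling left 1 name there. A block for tumour letters, which outside Balb/c-2 share only a letter, gave 0 copies and 0 names in N2.3 against N2.1, 1 name in Balb/c-1 against N2.3, and 9 copies and 10 names in N2.1 against F2; in the paired comparison of Balb/c-2 rep2 with Balb/c-2 it changed no call. Leaving out 1 library at a time gave 6 to 11 copies and 7 to 11 names in N2.1 against F2, 1 to 3 copies and 0 to 1 names in N2.3 against N2.1, 0 to 3 copies and 0 to 3 names in Balb/c-1 against N2.3, 0 to 2 copies and 0 to 1 names in CBA against Balb/c-2 rep2, and 0 in the other comparisons. Signs turned for UCON4 in N2.1 over copies outside exons (-0.085), and, without the leading copy, for UCON34 in Balb/c-1 (0.78) and MARE10 in CBA (-0.72). The exon copies of Sar1a in N2.1, near 0, turned to 0.027 with the covariate, ranged from -0.10 to 0.11 with 1 library left out (above 0 without F2 C or D or N2.1 B or E), and its intron copies had 0.90. Those of Brd1 turned to -0.037 with the covariate, and the intron copies of Plag1 in CBA had 0.45 against -1.08 for its exon copies. The cause of these changes was not tested. Of 117 other values for called copies over the alternatives that keep all libraries, 85 kept their call and 32 lost it, with no change of sign. Depth limits the low copies, where a few reads per library decide a value.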
